A study of Rattus norvegicus with 12 samples.

Results

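The 9 genes described here are the genes of vitamin D metabolism, of the FGF23 co-receptor and of phosphate transport that were present among the 13151 genes of the renal cortex RNA-seq table: *Cyp24a1*, *Cyp27b1*, *Vdr*, *Kl*, *Fgfr1*, *Slc34a1*, *Slc34a3*, *Slc20a1* and *Slc20a2*. They were chosen by function and by presence in the table, which holds genes with at least 12 reads over the 12 rats, and group differences in these data were already known when the list was drawn up. The p-values given for them therefore describe each gene against the spread between rats and are not independent evidence. The rats were male and 32 weeks old. The ZL group (Zucker lean, n = 4) was the untreated control, and the ZF group (Zucker fatty, n = 4) was the untreated obese model, whose leptin signalling is lost. The ZF-SGLT2i group (n = 4) was made of ZF rats that took canagliflozin, an SGLT2 inhibitor, with their food at 10 mg/kg/day, starting at the age of 24 weeks and lasting 8 weeks. No lean rats received the drug, so its effect was measured in obese rats only.

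Each library held between 8824980 and 12210257 reads on genes. Values below are normalized read counts on a CPM scale, which depend on gene length. Levels are therefore compared between rats, and the leading gene of a marker list is named on this scale and not per length. The tissue label was checked against marker genes: the summed level of 11 proximal tubule markers was 20041 ± 714 in ZL rats (SD, n = 4), with *Lrp2* (megalin) the most abundant, and none of the 11 was at 0 in any rat. Of 3 inner medulla markers, which summed to 72.1 ± 16.4 in ZL rats, *Slc14a2* was at 0 in ZL rat 3 and in ZF rats 3 and 4. In ZF-SGLT2i rats 2, 3, 4 and 6 it was at 0.286, 1.51, 0.906 and 3.34. The group means of *Slc14a2* were 0.310 (ZL), 0.260 (ZF) and 1.51 (ZF-SGLT2i). Among the ZL rats, rats 1 and 4 stood apart in *Slc7a13*, a transporter of the straight proximal tubule, at 838 and 1896 against 140 and 244 in rats 2 and 3. ZL rat 4 was also the lowest of its group in *Cyp24a1*, *Cyp27b1*, *Vdr*, *Kl*, *Slc34a1* and *Slc34a3*, and the differences of *Vdr*, *Slc34a1* and *Slc34a3* from ZL are given with and without it.

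Vitamin D is activated in the kidney. *Cyp27b1* encodes the mitochondrial hydroxylase that makes the hormone calcitriol, *Cyp24a1* encodes the hydroxylase that starts its breakdown, and *Vdr* encodes the nuclear receptor through which it acts. Calcitriol bound to its receptor is known to raise *Cyp24a1* strongly and to lower renal *Cyp27b1*. FGF23, a hormone from bone, acts on the tubule through FGF receptors with Klotho (*Kl*) as co-receptor, and it is known to lower *Cyp27b1*, to raise *Cyp24a1* and to reduce phosphate uptake. Phosphate is taken back from the filtrate by the sodium-phosphate cotransporters NaPi-IIa (*Slc34a1*) and NaPi-IIc (*Slc34a3*) of the proximal tubule brush border, while PiT-1 (*Slc20a1*) and PiT-2 (*Slc20a2*) are widely expressed carriers of the same ion.

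The genes of vitamin D breakdown and reception rose in ZF-SGLT2i rats, whereas Klotho was called in no comparison. In ZF against ZL, *Cyp24a1*, *Cyp27b1* and *Slc20a2* were called higher and no gene of the 9 was called lower. This is 3 of 9, beside 18.8% of the 11633 genes tested (8.19% higher and 10.6% lower). Between ZF-SGLT2i and ZF rats, *Cyp24a1* and *Vdr* were higher and *Cyp27b1* was lower in the former, 3 of 9 beside 3.15% of all genes tested (1.39% higher and 1.75% lower). Between ZF-SGLT2i and ZL rats, *Cyp24a1* and *Vdr* were higher and *Fgfr1* and *Slc34a1* were lower in the former, which differ from ZL rats in genotype as well as in treatment. This is 4 of 9 beside 27.4% of all genes (12.4% higher and 15.0% lower). The paper describes ZL rats only in a time course with earlier kidney biopsies, and treated rats in a separately purchased cohort. Cohort and earlier surgery may therefore differ between these 2 groups as well. Untreated ZF rats are described in both cohorts, so ZF against ZL or ZF-SGLT2i against ZF may carry these differences too. A gene was called at a limma adjusted p-value under 0.05, with adjustment over all genes tested. All 9 genes passed the filter on low values, which asked for 4 or more rats at 1 or above. *Cyp27b1* passed it only through the 4 ZF rats and therefore had to differ, so its calls support nothing further. Since group differences were known when the 9 genes were listed, the counts are a description and nothing is read from them. The median log2 fold change of the 9 genes was 0.040 in ZF against ZL, −0.054 in ZF-SGLT2i against ZF and 0.040 in ZF-SGLT2i against ZL. For all genes tested it was −0.0077, 0.0064 and −7.0e-05.

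**Figure D1:**
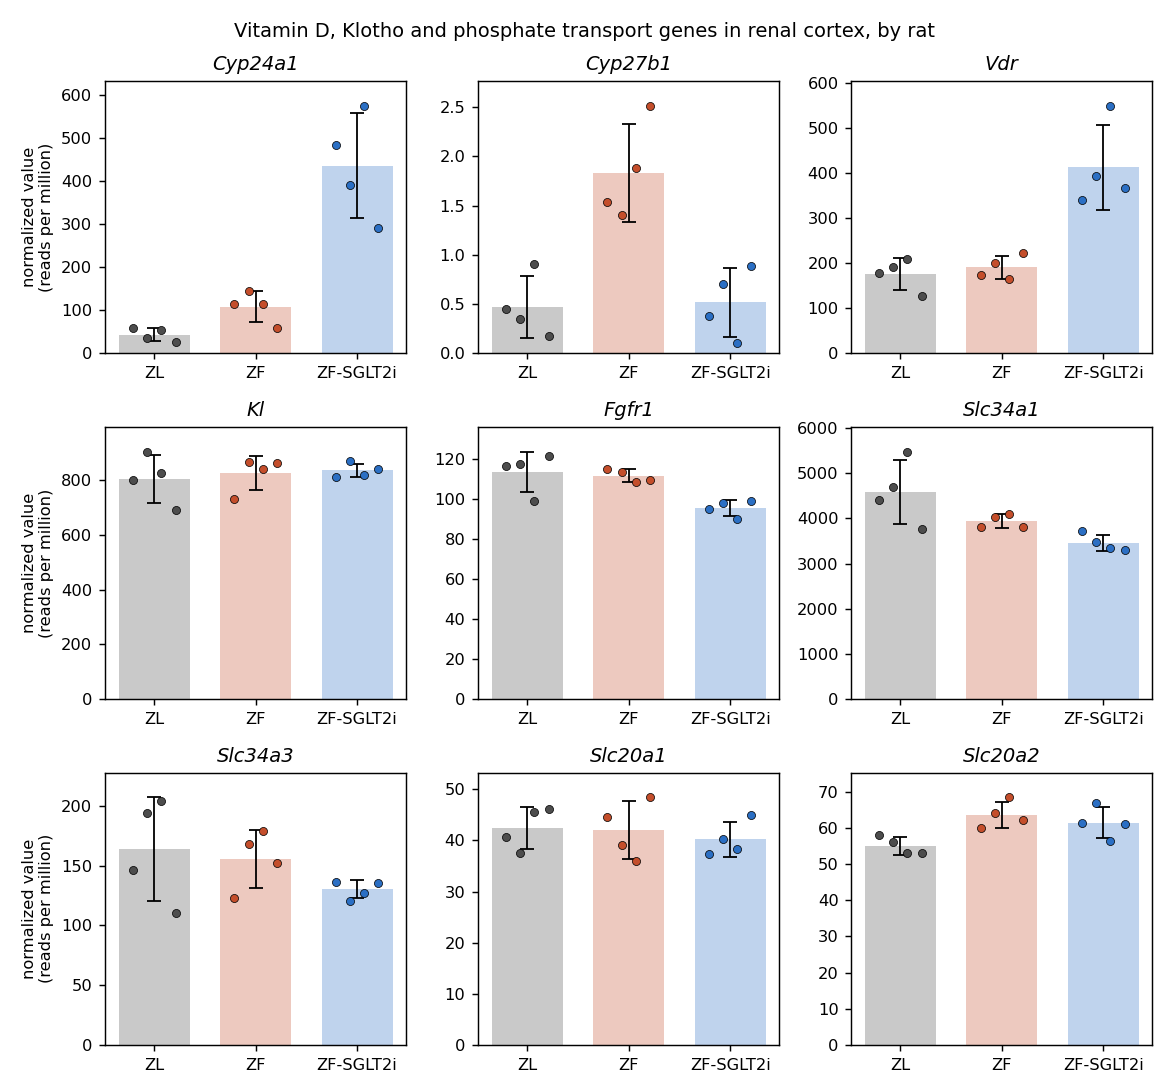
Normalized value (CPM scale, vertical axis from 0, a separate scale for each gene) of the 9 genes in each rat of the ZL, ZF and ZF-SGLT2i groups. Points are rats, bars are group means and error bars are SD (n = 4). *Cyp24a1* and *Vdr* were highest in the ZF-SGLT2i rats, *Cyp27b1* was highest in the ZF rats, and *Kl* was at similar levels in the 3 groups.

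*Cyp24a1*, the hydroxylase that breaks calcitriol down, was measured at 59.9, 34.9, 54.1 and 25.8 in ZL rats 1, 2, 3 and 4. In ZF rats 2, 3, 4 and 5 it was 114, 145, 115 and 59.8. In ZF-SGLT2i rats 2, 3, 4 and 6 it was 483, 392, 575 and 291. ZF rat 5 lay at the level of the highest ZL rat, so the ZL and ZF groups overlapped, while every ZF-SGLT2i rat was above every ZF and ZL rat. The group means were 43.7 ± 16.0, 108 ± 35.4 and 435 ± 122 (SD, n = 4 each). The ZF mean was 2.48 times the ZL mean, with a log2 fold change of 1.30 (SE 0.29, limma adjusted p = 0.0093; exact permutation p = 0.0571, two-sided). The ZF-SGLT2i mean was 4.02 times the ZF mean, with a log2 fold change of 2.02 (SE 0.29). This was the largest rise among the 11633 genes tested in that comparison, and it is given without a p-value because it was known when the genes were listed. Against ZL rats the ZF-SGLT2i mean was 9.97 times as high, with a log2 fold change of 3.32 (SE 0.29, limma adjusted p = 8.6e-06), the second largest rise of that comparison. The same treated rats enter this comparison, so its p-value is not independent evidence either. Reads on the gene ranged from 289 to 5718 per rat.

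*Cyp27b1*, the activating hydroxylase, was detected with few reads. The values were 0.449, 0.347, 0.907 and 0.179 in ZL rats 1 to 4, which came from 2 to 8 reads per rat. In ZF rats 2, 3, 4 and 5 they were 1.53, 1.40, 1.88 and 2.51, from 14 to 23 reads. In ZF-SGLT2i rats 2, 3, 4 and 6 they were 0.381, 0.707, 0.101 and 0.892, from 1 to 8 reads. Every ZF rat was above every rat of the other groups, and the ZL and ZF-SGLT2i rats overlapped. The ZF mean was 3.90 times the ZL mean (75 against 19 reads over the 4 rats), and the ZF-SGLT2i mean was 0.284 of the ZF mean (20 reads). On the log2(value + 1) scale, which understates the change of a gene at this level, the differences were 0.95 (SE 0.21, limma adjusted p = 0.0080) and −0.91 (SE 0.21, limma adjusted p = 0.031). The gene passed the filter on low values through the ZF rats only, so these calls support nothing further. The second call was lost with a pseudocount of 0.1 (adjusted p = 0.069) and without ZF-SGLT2i rat 2 (0.076), rat 3 (0.058) or rat 4 (0.086), and without ZF rat 4 when no filter was applied (0.061). ZF-SGLT2i against ZL gave 0.040 (95% confidence interval −0.41 to 0.49).

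*Vdr*, the receptor, was measured at 178, 191, 208 and 127 in ZL rats 1 to 4 and at 174, 201, 165 and 222 in ZF rats 2, 3, 4 and 5. In ZF-SGLT2i rats 2, 3, 4 and 6 it was 340, 393, 549 and 367. The ZL and ZF rats overlapped, with ZL rat 4 below every ZF rat and ZF rat 5 above every ZL rat, and the lowest ZF-SGLT2i rat was above the highest ZF rat. The ZF-SGLT2i mean of 412 ± 93.8 was 2.16 times the ZF mean of 191 ± 25.7 (SD, n = 4), with a log2 fold change of 1.09 (SE 0.16, limma adjusted p = 0.0026; exact permutation p = 0.0286, the smallest that 70 assignments allow). It was the rise with rank 16 among the 11633 genes. ZF-SGLT2i against ZL gave 1.22 (SE 0.16, limma adjusted p = 0.00019), and ZF against ZL gave 0.13 (95% confidence interval −0.22 to 0.48). Without ZL rat 4 these were 1.07 (adjusted p = 0.00024) and −0.021. *Vdr* was called in both of these ZF-SGLT2i comparisons in all 22 alternative analyses. Within the ZF-SGLT2i group, rat 4 had the highest value of both *Cyp24a1* and *Vdr* and the lowest of *Cyp27b1*.

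The receptor binds DNA with a retinoid X receptor at paired hexamers such as AGGTCA, with GGTTCA and with AGTTCA as common variants, and the promoters of *Vdr* and *Cyp27b1* are shown because these genes moved between groups. The sequences are the 250 bases before the transcription start, 5′ to 3′ on the gene's strand, from a RefSeq promoter table on build GRCr8, in which 5 of the 9 genes were matched (*Cyp27b1*, *Vdr*, *Kl*, *Slc34a1* and *Slc34a3*). *Vdr* is on the minus strand at chr7:130916758-130917007 and *Cyp27b1* is on the plus strand at chr7:64756376-64756625. Capitals mark a hexamer on either strand.
Vdr: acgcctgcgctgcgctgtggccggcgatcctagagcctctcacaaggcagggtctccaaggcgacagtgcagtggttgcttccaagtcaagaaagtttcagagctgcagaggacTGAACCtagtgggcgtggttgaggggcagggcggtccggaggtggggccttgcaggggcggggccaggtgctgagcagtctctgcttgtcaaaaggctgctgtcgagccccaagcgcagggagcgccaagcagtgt
Cyp27b1: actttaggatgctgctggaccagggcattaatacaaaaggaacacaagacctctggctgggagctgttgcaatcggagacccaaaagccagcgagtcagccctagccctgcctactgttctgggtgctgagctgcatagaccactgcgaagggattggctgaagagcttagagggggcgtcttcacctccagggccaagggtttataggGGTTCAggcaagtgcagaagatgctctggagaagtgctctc
In the *Vdr* window, GGTTCA was found on the reverse strand, 136 to 131 bases before the start. In the *Cyp27b1* window, GGTTCA was found on the forward strand, 41 to 36 bases before the start. *Slc34a1* held AGTTCA (76 to 71 bases before the start), *Slc34a3* held AGGTCA at 2 places (44 to 39 and, on the reverse strand, 17 to 12) and *Kl* held none. Searched on both strands, AGGTCA was present in 14.1% of 33469 promoter windows of the same length, GGTTCA in 9.77%, AGTTCA in 12.2% and any of the 3 in 31.3%. The direct repeat with 3 spacer bases, the usual form of the receptor's element, was in 0.314% of the windows and in none of the 5. A match of letters is a description and not a binding site.

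*Kl*, the FGF23 co-receptor, was at 799, 904, 825 and 691 in ZL rats 1 to 4, at 732, 865, 842 and 864 in ZF rats 2, 3, 4 and 5, and at 812, 868, 820 and 840 in ZF-SGLT2i rats 2, 3, 4 and 6. The 3 groups overlapped, with means of 805 ± 88.0, 826 ± 63.2 and 835 ± 25.1. The log2 difference was 0.040 in ZF against ZL (95% confidence interval −0.14 to 0.22), 0.019 in ZF-SGLT2i against ZF (−0.16 to 0.20) and 0.059 in ZF-SGLT2i against ZL (−0.12 to 0.24), none of them called. Differences beyond 0.24 on the log2 scale in either direction lie outside all 3 intervals. Quantile normalization raised the last of them to 0.27 and called it (adjusted p = 0.043).

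*Fgfr1*, the FGF receptor that pairs with Klotho in the tubule, was at 116, 117, 98.9 and 121 in ZL rats 1 to 4, at 115, 113, 108 and 109 in ZF rats 2, 3, 4 and 5, and at 94.9, 97.8, 90.1 and 98.8 in ZF-SGLT2i rats 2, 3, 4 and 6. Every ZF-SGLT2i rat was below every ZF and ZL rat, although ZL rat 3 lay just above the highest of them. The log2 fold change in ZF-SGLT2i against ZL was −0.24 (SE 0.06, limma adjusted p = 0.012). Against ZF it was −0.22 (SE 0.06) and was not called (limma adjusted p = 0.080; exact permutation p = 0.0286). It was called without ZL rat 3 (adjusted p = 0.027), with only the 2 groups in the fit (0.039), with array weights (0.023) and with DESeq2 (0.037). ZF against ZL gave −0.022 (95% confidence interval −0.16 to 0.12).

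*Slc34a1*, which encodes NaPi-IIa, was at 4398, 4690, 5478 and 3757 in ZL rats 1 to 4 and at 3798, 4021, 4105 and 3818 in ZF rats 2, 3, 4 and 5. In ZF-SGLT2i rats 2, 3, 4 and 6 it was 3713, 3470, 3334 and 3304. ZL rat 4 lay below all ZF rats while the other ZL rats lay above them, and every ZF-SGLT2i rat was below every rat of both other groups. The ZF-SGLT2i mean was 0.754 of the ZL mean, with a log2 fold change of −0.39 (SE 0.12, limma adjusted p = 0.030). This call was lost in 10 of 22 alternatives, among them quantile normalization (0.31), no filter on low values (0.057) and leaving out ZL rat 1, 2 or 3 (0.059, 0.056 and 0.072) or ZF-SGLT2i rat 3, 4 or 6 (0.067, 0.065 and 0.077). Without ZL rat 4 it was −0.49 (adjusted p = 0.0087), and ZF against ZL was then −0.30 and not called (0.097). The differences in ZF against ZL (−0.21, 95% confidence interval −0.47 to 0.06, and 0.075 after quantile normalization) and in ZF-SGLT2i against ZF (−0.19, −0.45 to 0.08) were not called.

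*Slc34a3*, which encodes NaPi-IIc, was at 146, 194, 204 and 110 in ZL rats 1 to 4, at 123, 168, 179 and 152 in ZF rats 2, 3, 4 and 5, and at 136, 121, 127 and 136 in ZF-SGLT2i rats 2, 3, 4 and 6. The 3 groups overlapped and no difference was called. ZF-SGLT2i against ZL gave −0.29 (95% confidence interval −0.64 to 0.06, limma adjusted p = 0.21), and −0.46 without ZL rat 4, the lowest ZL rat (adjusted p = 0.018). ZF against ZL without it gave −0.22 (0.27).

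Of the widely expressed carriers, *Slc20a2* was called in ZF against ZL and *Slc20a1* in no comparison. *Slc20a1* (PiT-1) had group means of 42.5 ± 4.1 (ZL), 42.0 ± 5.6 (ZF) and 40.3 ± 3.4 (ZF-SGLT2i), and its 3 groups overlapped. *Slc20a2* (PiT-2) was at 58.0, 56.1, 53.1 and 53.0 in ZL rats 1 to 4, at 59.9, 64.1, 68.5 and 62.1 in ZF rats 2, 3, 4 and 5, and at 61.3, 67.0, 56.4 and 61.0 in ZF-SGLT2i rats 2, 3, 4 and 6. Every ZF rat was above every ZL rat, and ZF-SGLT2i rat 4 lay within the ZL range. The log2 fold change in ZF against ZL was 0.21 (SE 0.06, limma adjusted p = 0.038). It was not called in 10 of 22 alternatives, 7 of which left out 1 rat: ZL rat 2, 3 or 4 (adjusted p = 0.051, 0.086 and 0.085), ZF rat 3, 4 or 5 (0.087, 0.083 and 0.059) or ZF-SGLT2i rat 2 (0.052). ZF-SGLT2i against ZF gave −0.051 (95% confidence interval −0.19 to 0.09).

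**Figure D2:**
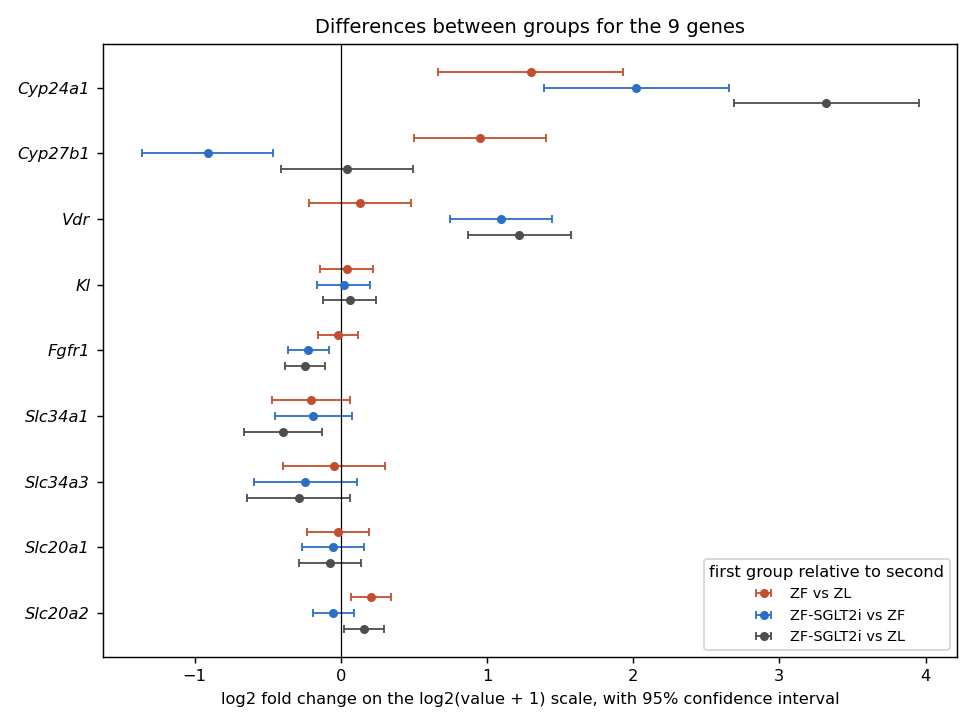
Log2 fold change on the log2(value + 1) scale (horizontal axis) of the 9 genes in the 3 comparisons, each shown as the first group relative to the second. Points are limma estimates and bars are 95% confidence intervals. The ZF-SGLT2i comparisons of *Cyp24a1* (2.02 and 3.32) and *Vdr* (1.09 and 1.22) lie to the right of 0, *Cyp27b1* is to the right in ZF against ZL (0.95) and to the left in ZF-SGLT2i against ZF (−0.91), and all intervals of *Kl*, *Slc34a3* and *Slc20a1* include 0.

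Markers of the tubule segments also moved with the groups. The 11 proximal tubule markers summed to 20802, 19098, 19984 and 20281 in ZL rats 1 to 4, to 15429, 15198, 18801 and 13973 in ZF rats 2, 3, 4 and 5, and to 15537, 13843, 14413 and 11697 in ZF-SGLT2i rats 2, 3, 4 and 6. Every ZL rat was above every ZF rat, but *Slc7a13* made 1896 of the sum in ZL rat 4 and 36.0 in ZF rat 4. Without this gene ZL rat 4 would lie below ZF rat 4. *Slc34a1* was not called in ZF against ZL. *Lrp2* alone had a mean of 10737 in ZL and 7835 in ZF rats and was not called there (−0.47, limma adjusted p = 0.073). In the same comparison 3 of the 11 markers were called lower (*Slc7a13*, *Slc5a1* and *Aqp1*, in 21, 22 and 15 of 22 alternatives) and 1, *Slc22a6*, higher (0.33, limma adjusted p = 0.040, called in 13 of 22 alternatives), beside 10.6% and 8.19% of all genes. Like *Slc7a13*, the other 2 markers called lower were highest in ZL rats 1 and 4. *Slc5a1* was at 79.3 and 78.8 there, against 58.3 and 61.5 in ZL rats 2 and 3. *Aqp1* was at 1583 and 1828, against 1267 and 1292. For *Slc5a1* and *Aqp1* the ZL and ZF groups did not overlap. *Slc22a6* was also the 1 marker of the 11 called in ZF-SGLT2i against ZF (−0.59, limma adjusted p = 0.0084). In ZF-SGLT2i against ZL, in which *Slc34a1* was called lower, 4 of the 11 were called lower (*Slc7a13*, *Slc5a1*, *Hnf4a* and *Lrp2*) and 0 higher (all genes 15.0% and 12.4%). These 4 were called in 22, 22, 17 and 21 of 22 alternatives. The 3 distal convoluted and connecting tubule markers analysed (*Slc12a3*, *Calb1* and *Trpv5*, of which *Slc12a3* was the most abundant) summed to 2740, 3664, 3143 and 1998 in ZL rats, 2682, 3570, 2808 and 4053 in ZF rats and 3973, 4156, 4415 and 4441 in ZF-SGLT2i rats, in the same rat order. Only ZF rat 5 reached the range of the ZF-SGLT2i rats. In ZF-SGLT2i against ZF, in which *Vdr* rose, 0 of these 3 markers passed the test (1 at an unadjusted p under 0.05, 0 by edgeR and 0 by DESeq2). Of all 11633 genes in that comparison, 3.15% passed, 1996 genes were at an unadjusted p under 0.05, 368 were called by edgeR and 641 by DESeq2. The 6 collecting duct markers, led by *Slc4a1* in the ZL mean and by *Aqp2* in the ZF and ZF-SGLT2i means, summed to 1548, 2068, 1686 and 1284 in ZL, 1640, 1926, 1410 and 2067 in ZF and 2306, 2434, 2388 and 2587 in ZF-SGLT2i rats, and 1 of the 6, *Aqp2*, was called higher in ZF-SGLT2i against ZF (log2 fold change 0.62, limma adjusted p = 0.0495), a call that held in 8 of 22 alternatives (highest adjusted p 0.14). By edgeR 0 of the 6 were called and by DESeq2 2, with 5 at an unadjusted p under 0.05 and all 6 higher. Against ZL, where *Vdr* and *Cyp24a1* were also higher in ZF-SGLT2i rats, 2 of the 3 distal markers (*Slc12a3* 0.79 and *Trpv5* 0.72) and 4 of the 6 collecting duct markers (*Aqp2*, *Scnn1b*, *Slc26a4* and *Avpr2*, 0.43 to 0.97) were called higher, beside 12.4% of all genes. *Avpr2* was called in 17 of 22 alternatives and each of the others in all 22. None of the distal or collecting duct markers was at 0 in any rat. The inner medulla markers, led by *Aqp4*, summed to 69.4 ± 12.4 in ZF and 108 ± 19.4 in ZF-SGLT2i rats. *Aqp4*, which cortical collecting ducts also express, was at 45.8, 75.1, 49.9 and 71.3 in ZF rats 2, 3, 4 and 5 and at 88.9, 81.3, 101 and 122 in ZF-SGLT2i rats 2, 3, 4 and 6, without overlap, and was not called (0.71, limma adjusted p = 0.12). *Slc14a2* had a mean of 0.260 in ZF (10 reads) and 1.51 in ZF-SGLT2i rats (57 reads). Its groups overlapped, and it did not pass the filter on low values. *Krt19* had means of 8.65 and 8.64 in these groups and was not called. The mean sum in ZF-SGLT2i rats was 1.38 times that in ZF rats for collecting duct, 1.30 times for distal and 1.56 times for inner medulla markers, beside 2.16 times for *Vdr* and 4.02 times for *Cyp24a1*. The part of these markers in the differences of *Vdr*, *Cyp24a1* and *Slc34a1* was not tested. In whole cortex, fewer cells of a type and less RNA per cell cannot be told apart.

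**Figure D3:**
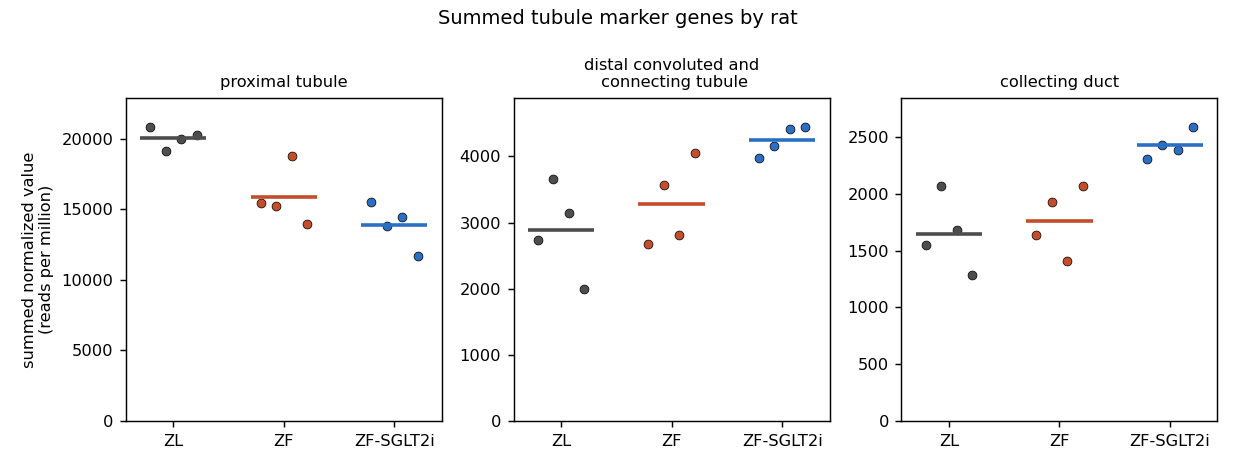
Summed normalized value (CPM scale, vertical axis from 0) of 11 proximal tubule, 3 distal convoluted and connecting tubule and 6 collecting duct marker genes in each rat. Points are rats and lines are group means. The mean proximal tubule sums of the ZL, ZF and ZF-SGLT2i rats were 20041, 15850 and 13872, and the mean collecting duct sums were 1647, 1761 and 2429.

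Genes around vitamin D were examined next, in a list of supply genes and receptor partners (carriers, uptake receptors, hydroxylases and coregulators). In ZF against ZL, 3 of 17 tested genes were called, all lower, near the share of all genes called there (18.8%). *Gc*, the plasma vitamin D binding protein, was at 30.6, 9.10, 12.2 and 57.6 in ZL rats 1 to 4 and at 8.25, 1.00, 2.99 and 0.219 in ZF rats 2, 3, 4 and 5, and the groups did not overlap (log2 fold change −2.86, SE 0.58, limma adjusted p = 0.0053). It was highest in ZL rats 1 and 4, the rats high in *Slc7a13*. *Dhcr7*, which converts the vitamin D precursor to cholesterol, fell by 1.40 on the log2 scale (limma adjusted p = 0.0017), from a mean of 42.8 to 15.0. It too was highest in ZL rats 1 and 4, at 45.8 and 65.7 against 28.3 and 31.5 in rats 2 and 3, and each of these was above every ZF rat. *Amn*, a partner of the uptake receptor cubilin, fell by 0.28 (limma adjusted p = 0.039), a call lost without any 1 of ZL rats 1, 2 and 4, ZF rats 2 and 5 and ZF-SGLT2i rats 3 and 4 (adjusted p = 0.0504 to 0.11). With the drug, against ZF, 0 of 17 passed the limma test, with 3 at an unadjusted p under 0.05, 0 by edgeR and 1 by DESeq2 (3.15% of all genes by limma). Against ZL, 1 was called higher and 6 lower in ZF-SGLT2i rats (all genes 12.4% and 15.0%). The median log2 fold change of the list was −0.10 in ZF against ZL, −0.015 in ZF-SGLT2i against ZF and −0.14 in ZF-SGLT2i against ZL.

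Known targets of the receptor outside *Cyp24a1* were 12 genes, most of them of calcium handling. Among them, *Trpv5* and *Calb1* are also distal convoluted and connecting tubule markers above, so for these genes the lists are not separate observations. In ZF against ZL 3 of 12 were called, all higher (all genes 18.8%, with 8.19% higher). *Trpv5*, the calcium entry channel of the distal tubule, rose from a mean of 43.2 to 65.2 (log2 fold change 0.59, limma adjusted p = 0.0031), and the related channel *Trpv6* from 1.32 to 2.45 (0.61, limma adjusted p = 0.029). The call of *Trpv6* was lost without ZL rat 3 (0.062) or ZF rat 2, 3 or 5 (0.084, 0.058 and 0.051). *Spp1*, osteopontin, was at 167, 178, 166 and 166 in ZL rats 1 to 4 and at 1473, 411, 1056 and 313 in ZF rats 2, 3, 4 and 5 (log2 fold change 1.98, limma adjusted p = 0.011). *Spp1* is also a marker of injured tubule, and of the other markers of that list *Havcr1*, *Lcn2* and *Clu* were called higher in ZF than in ZL (3.01, 1.50 and 1.12), while *Vcam1* (0.17) and *Sox9* (−0.60) were not called. Between ZF-SGLT2i and ZF rats, where *Cyp24a1* and *Vdr* differed, 0 of the 12 passed the limma test, with 5 at an unadjusted p under 0.05, 0 by edgeR and 1 by DESeq2. Of all 11633 genes, 3.15% passed, with 1996 genes at such an unadjusted p, 368 called by edgeR and 641 by DESeq2. Against ZL, 5 of 12 were called higher and 1 lower in ZF-SGLT2i rats (all genes 12.4% and 15.0%). The median log2 fold change was 0.071 in ZF against ZL, 0.15 in ZF-SGLT2i against ZF and 0.29 in ZF-SGLT2i against ZL.

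The list of FGF23, parathyroid hormone and FGF receptor signalling had 24 tested genes, and 5 were called higher and 2 lower in ZF than in ZL (all genes 8.19% and 10.6%). *Pthlh*, the parathyroid hormone-related ligand, was at 0.173 to 0.454 in ZL rats and at 1.50 to 4.03 in ZF rats (log2 fold change 1.51, limma adjusted p = 0.0014), and it passed the filter on low values through ZF and ZF-SGLT2i rats only, so it had to differ from ZL and its call supports nothing further. *Dusp6*, a phosphatase that limits the kinase cascade below FGF receptors, fell by 0.79 (limma adjusted p = 0.0026). *Spry4*, a feedback inhibitor of the same cascade, rose by 0.35 and *Galnt3*, which glycosylates FGF23, fell by 0.38 on the log2 scale (limma adjusted p = 0.0095 and 0.021, the latter lost without ZL rat 3 at 0.057 or ZF rat 3 at 0.068). Between ZF-SGLT2i and ZF, 1 gene was called higher and 2 lower (all genes 1.39% and 1.75%). *Etv4*, a transcription factor induced by FGF signalling, was at 3.93, 4.21, 2.31 and 4.15 in ZF rats 2, 3, 4 and 5 and at 7.24, 9.59, 8.15 and 7.36 in ZF-SGLT2i rats 2, 3, 4 and 6 (log2 fold change 0.98, limma adjusted p = 0.0054). *Pth1r*, the parathyroid hormone receptor, was at 302, 304, 329 and 330 in ZF rats and at 252, 241, 275 and 244 in ZF-SGLT2i rats, in the same order, and every treated rat was below every ZF rat (log2 fold change −0.32, limma adjusted p = 0.0091). *Adam17*, a sheddase that can release Klotho, fell by 0.23 (limma adjusted p = 0.046), a call lost without any 1 of ZL rat 1, the 4 ZF rats and ZF-SGLT2i rats 3, 4 and 6 (0.056 to 0.14). *Etv4* was also higher in ZF than in ZL rats (0.59, limma adjusted p = 0.023), a call lost without ZL rat 1 or 4 or ZF rat 2, 3 or 5 (0.055 to 0.069). Against ZL, 7 genes were called higher and 5 lower in ZF-SGLT2i rats (all genes 12.4% and 15.0%). The median log2 fold change was −0.019 in ZF against ZL, 0.045 in ZF-SGLT2i against ZF and 0.040 in ZF-SGLT2i against ZL.

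Among 17 tested partners of phosphate transport (other carriers, scaffold proteins, inositol pyrophosphate kinases, phosphatases), 2 were called higher and 6 lower in ZF than in ZL (all genes 8.19% and 10.6%). *Slc9a3r1* (NHERF-1) and *Pdzk1*, scaffolds that hold NaPi-IIa at the brush border, fell by 0.53 and 0.41 on the log2 scale (limma adjusted p = 0.011 and 0.012). With quantile normalization *Pdzk1* was at −0.21 and not called (adjusted p = 0.085). *Slc9a3r1* was highest in ZL rats 1 and 4 (379 and 467 against 299 and 320 in rats 2 and 3). The related scaffold *Slc9a3r2* was called higher in ZF than in ZL (0.41, limma adjusted p = 0.028), without overlap, and was called in 16 of 22 alternatives. It lies outside the rule for named genes and was chosen after its values were seen. *Slc17a1*, a brush border carrier of phosphate and urate, fell by 1.19 (limma adjusted p = 0.0026), and *Alpl*, alkaline phosphatase, by 0.48 (limma adjusted p = 0.0033). *Alpl* too was highest in ZL rats 1 and 4 (356 and 384 against 300 and 307 in rats 2 and 3), and every ZL rat was above every ZF rat. *Ankh*, a membrane protein of pyrophosphate export, was at 22.3, 21.1, 17.6 and 22.1 in ZL rats 1 to 4, at 38.9, 36.3, 31.2 and 30.8 in ZF rats 2, 3, 4 and 5, and at 25.2, 28.9, 24.8 and 20.1 in ZF-SGLT2i rats 2, 3, 4 and 6. Every ZF rat was above every rat of the other groups (log2 fold change 0.70, limma adjusted p = 0.0015 against ZL; −0.46, adjusted p = 0.042 in ZF-SGLT2i against ZF). *Ankh* was the 1 gene of the 17 called in ZF-SGLT2i against ZF (all genes 3.15%), a call lost without any 1 of ZL rats 1 and 2, ZF rats 2, 3 and 4 and ZF-SGLT2i rats 2, 4 and 6 (0.053 to 0.13). Against ZL, 1 was called higher and 5 lower in ZF-SGLT2i rats (all genes 12.4% and 15.0%). The median log2 fold change was −0.036 in ZF against ZL, −0.0047 in ZF-SGLT2i against ZF and −0.11 in ZF-SGLT2i against ZL.

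**Figure D4:**
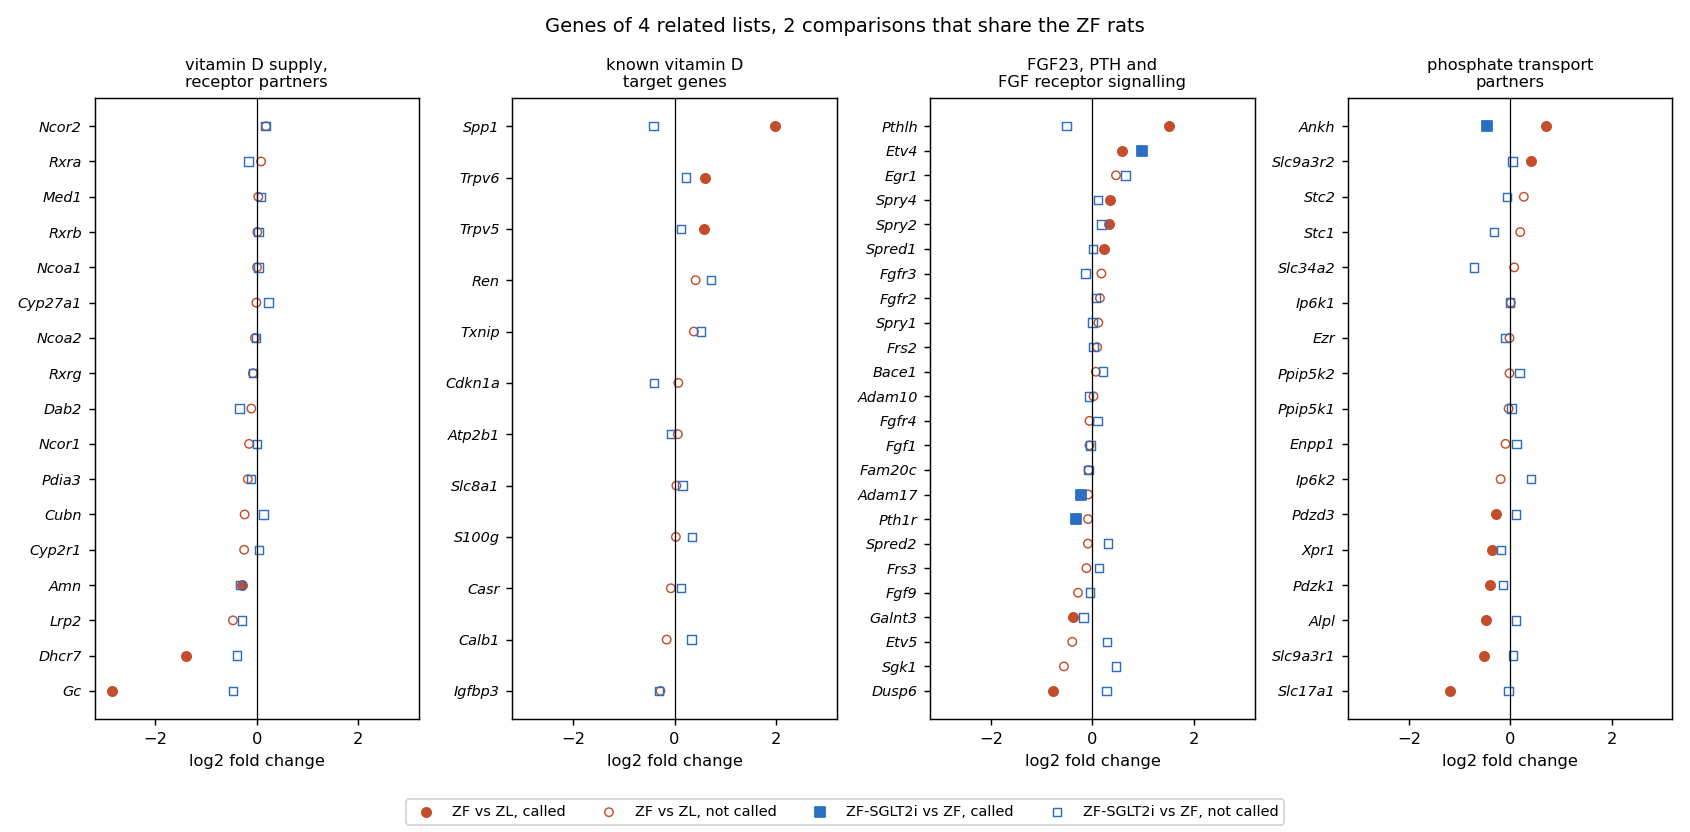
Log2 fold change (horizontal axis) of the tested genes of 4 related lists, circles for ZF against ZL and squares for ZF-SGLT2i against ZF. Filled symbols passed a limma adjusted p-value of 0.05, and the 2 comparisons share the ZF rats. *Gc* (−2.86) and *Spp1* (1.98) are farthest from 0 in ZF against ZL, and filled squares are *Etv4*, *Pth1r*, *Adam17* and *Ankh*.

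The genes most alike in pattern were sought for 4 of the 9 genes by Pearson's r of log2(value + 1) over the 12 rats, among 8623 other genes with a mean value of at least 10. The rats fall into 3 groups, so these r describe shared group differences as well as shared variation. For *Cyp24a1* they were *Cpt1a* (r = 0.96), which brings fatty acids into mitochondria, *Igfbp1* (r = 0.96), a binding protein of insulin-like growth factors, and *Ncdn* (r = 0.95). The means of *Cpt1a* were 238, 336 and 492 and those of *Igfbp1* were 48.3, 67.1 and 105, in the order ZL, ZF, ZF-SGLT2i. For *Slc34a1* they included *Fuom* and *Bnc2* (r = 0.95 and 0.94), each highest in ZL and lowest in ZF-SGLT2i rats. For *Kl* they included *Slc8a1*, the sodium-calcium exchanger of the distal tubule (r = 0.92), and *Rfx7* (r = 0.89). For *Cyp27b1*, at few reads, they were *Pogk*, *Rasa1* and *Evl* (r = 0.92, 0.89 and 0.89).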

How the data were processed

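Total RNA was taken from the renal cortex of 12 rats (4 ZL, 4 ZF, 4 ZF-SGLT2i), depleted of ribosomal RNA, made into directional libraries and sequenced as 150-base read pairs. The submitters' processing notes name Trimmomatic 0.38, Bowtie2, RSEM 1.3.0, edgeR and build rn6, with no role given. The signal values deposited by the authors are counts on a CPM scale with scaling factors, and dividing by each rat's constant gave whole reads (tolerance 1e-06) for 100% of values. The 9 genes and all lists were chosen with earlier results of these data known. Gene names were matched to RefSeq symbols. Coordinates and promoters are from GRCr8, not the authors' build, and near-identical genes may share reads.

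The 3 comparisons came from 1 limma 3.58.1 fit (eBayes with trend, R 4.3.3) on log2(value + 1) of all 12 rats, with group only, for the 11633 genes that reached 1 in 4 or more rats. P-values were two-sided and Benjamini-Hochberg adjusted over those genes, and a gene was called under 0.05. The fit was tested on simulated data. Single genes were also compared by an exact permutation test of 70 assignments. Nothing in the labels ties each rat to a litter or cage, and no rats of a group were copies. The named genes of the 4 lists are up to 5 per list with the smallest adjusted p under 0.05, taken separately for ZF against ZL and for ZF-SGLT2i against ZF. There were 22 alternatives: 12 that left out 1 rat, and pseudocount 0.1, no filter, a mean of at least 10, median-ratio rescaling, quantile normalization, 2 groups only, a replicate block, array quality weights, edgeR 4.0.16 and DESeq2 1.42.0 on the recovered read counts. For *Cyp27b1*, leaving out a ZF rat with no filter was added after seeing the data. Marker lists of injured tubule, thick limb, podocyte, endothelium, macrophage, fibroblast, adipocyte and blood cells were also summed. The genes most alike in pattern are the 3 with the highest r for each of 4 genes, and some of them are not reported here. *Ncoa3*, *Fgf23*, *Klb*, *Pth2r* and *Sfrp4* were not analysed here.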

Additional observations from a re-analysis of the deposited data

Results flagged for a closer look

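Among the 9 genes and the 18 named genes of the related lists, 4 of 81 groups held a rat far from its other 3, and chance gives about 1 in 20 groups, or 4.05 of 81. *Kl* in ZF rat 2 was 732.4, below 842 to 865 in the other ZF rats. *Spp1* in ZL rat 2 was 178.2, above 166 to 167 in the others. *Trpv6* in ZF rat 2 was 2.972, above 2.22 to 2.31 in the others. *Etv4* in ZF rat 4 was 2.308, below 3.93 to 4.21 in the others.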

How the results depend on the processing

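With a replicate block, the members called fell from 3 to 1 in ZF against ZL and from 4 to 2 in ZF-SGLT2i against ZL, and all genes called from 2185 to 807, from 366 to 223 (ZF-SGLT2i against ZF) and from 3184 to 1502. Other genes of the 4 lists fell from 21 to 9, from 4 to 2 and from 31 to 20. Rats of the same number correlated at −0.38 to 0.25 (9 pairs), and rats of different numbers at −0.40 to 0.46. Whether the numbers pair the rats cannot be told from these ranges. Leaving out 1 rat gave 1 to 3 members called in ZF against ZL (1 without ZF rat 3, 4 or 5, where *Cyp27b1* no longer passed the filter and *Slc20a2* was not called), 2 to 4 in ZF-SGLT2i against ZF and 3 to 5 in ZF-SGLT2i against ZL, and 1384 to 2453, 176 to 569 and 2238 to 3302 of all genes. In ZF-SGLT2i against ZF, array quality weights called 689 genes and 9 of the lists, DESeq2 641 and 7, and a fit of the 2 groups 477 and 7. In ZF against ZL the fit of the 2 groups called fewer, 1621 genes and 16 of the lists. It ended the calls of *Amn* (adjusted p = 0.061), *Trpv6* (0.067) and *Etv4* (0.053) there, and of *Adam17* (0.064) in ZF-SGLT2i against ZF. Also in ZF against ZL, *Amn* was not called by edgeR (0.0502) and *Trpv6* not with array quality weights (0.054). Quantile normalization moved the calls of ZF against ZL from 953 higher and 1232 lower to 1103 and 942, and turned *Fgfr1* (0.050), *Slc34a1* (0.075), *Slc34a3* (0.038) and *Slc20a1* (0.014) upward in ZF against ZL and *Cyp27b1* downward in ZF-SGLT2i against ZL (−0.025, and −0.074 with the block), and it called *Kl* in ZF-SGLT2i against ZL (0.27, adjusted p = 0.043). It also ended the ZF against ZL calls of *Amn* (adjusted p = 0.12), *Trpv6* (0.065), *Etv4* (0.057) and *Pdzk1* (0.085). The cause of these changes was not tested. The block also ended the calls of *Cyp27b1* (adjusted p = 0.066 for ZF against ZL and 0.10 for ZF-SGLT2i against ZF) and, in their called comparisons, of *Fgfr1* (0.094), *Slc34a1* (0.17) and *Slc20a2* (0.12). Of the genes named by rule from the 4 lists, it ended the ZF against ZL calls of *Gc* (0.062), *Amn* (0.25), *Trpv6* (0.052), *Galnt3* (0.063), *Etv4* (0.12), *Alpl* (0.059), *Slc9a3r1* (0.071) and *Pdzk1* (0.081), and in ZF-SGLT2i against ZF those of *Pth1r* (0.12), *Adam17* (0.12) and *Ankh* (0.15).

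Uncalled values near 0 changed sign when 1 rat was left out. In ZF against ZL these were *Vdr* (−0.021 to 0.22), *Kl* (−0.031 to 0.098), *Fgfr1* (−0.086 to 0.012), *Slc34a3* (−0.22 to 0.072) and *Slc20a1* (−0.090 to 0.051). In ZF-SGLT2i against ZF they were *Kl* (−0.038 to 0.042) and *Slc20a1* (−0.13 to 0.015), and in ZF-SGLT2i against ZL *Cyp27b1* (−0.075 to 0.19) and *Kl* (−0.012 to 0.12). *Slc20a2* in ZF-SGLT2i against ZL was called without ZF-SGLT2i rat 4 (0.19, adjusted p = 0.045). *Cyp27b1* had no value with a mean of at least 10 or without a ZF rat under the filter. Its 1 to 23 reads per rat limit its precision, and each group had 4 rats.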

Other observations

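Markers of other cell types differed between the groups as well, as sums of normalized values (mean ± SD, n = 4). Of all genes tested, 8.19% were called higher and 10.6% lower in ZF than in ZL, 1.39% and 1.75% in ZF-SGLT2i than in ZF, and 12.4% and 15.0% in ZF-SGLT2i than in ZL. At an unadjusted p under 0.05 there were 3848, 1996 and 4566 of the 11633 genes in these 3 comparisons. The 4 thick limb markers, led by *Umod*, summed to 3928 ± 1107 (ZL), 3825 ± 905 (ZF) and 2577 ± 291 (ZF-SGLT2i), and 1 of 4, *Cldn10*, was called lower in ZF-SGLT2i than in ZF (log2 fold change −0.76, limma adjusted p = 0.022, called in 17 of 22 alternatives). The 4 fibroblast markers, led by *Pdgfra* in the ZL and ZF-SGLT2i means and by *Col3a1* in the ZF mean, summed to 405 ± 56.8, 490 ± 123 and 284 ± 24.1, and 2 of 4 were called lower in ZF-SGLT2i than in ZF, with *Col3a1*, a fibrillar collagen, at −1.03 (limma adjusted p = 0.0055). The 6 injured tubule markers, led by *Spp1*, summed to 398 ± 41.0, 1151 ± 639 and 873 ± 331, of which *Spp1* made 169, 813 and 569, and 1 of 6, *Vcam1*, was called lower in ZF-SGLT2i than in ZF (−0.67, limma adjusted p = 0.039, called in 15 of 22 alternatives). Of the 4 podocyte markers, *Nphs1* and *Podxl* were called higher in ZF than in ZL (0.47 and 0.40, in 21 and 14 of 22 alternatives), and 0 of 4 differed between ZF-SGLT2i and ZF by limma, edgeR or DESeq2, with 1 at an unadjusted p under 0.05. The 4 endothelial markers summed to 293 ± 44.8, 349 ± 25.3 and 336 ± 45.0, and 0 of 4 were called by limma, edgeR or DESeq2 in any of the 3 comparisons, with 3 at an unadjusted p under 0.05 in ZF against ZL and 1 in each of the others. The 3 blood markers, at low levels, summed to 2.17 ± 1.1, 8.11 ± 4.74 and 13.6 ± 9.37, and the lowest treated and ZF rats, both numbered 3, were at 0.505 and 2.00. Of the 2 blood markers tested (*Hbb* and *Hba1*), 0 were called by limma in any comparison. In ZF-SGLT2i against ZL, 2 were called by edgeR and 1 by DESeq2, with 2 at an unadjusted p under 0.05, and in ZF against ZL 0 by edgeR and 1 by DESeq2, with 1 at such a p. For the 4 macrophage markers and the 1 adipocyte marker tested, 0 were called by any of these tools in any comparison. At an unadjusted p under 0.05 there was 1 macrophage marker in ZF-SGLT2i against ZF, and the adipocyte marker in that comparison and in ZF against ZL.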
